A study of Oryza sativa with 9 samples.

Results

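The genes described here were chosen by their measured FPKM values, as those at least halved in rice seedlings that overexpress SDG708 relative to the wild type. A gene entered the list if its mean FPKM (a fragment count scaled by gene length and library size) was at least 2 in the wild type and at least 2 times the mean of the overexpression line, and if its lowest wild-type value lay above its highest overexpression value. Of 34119 genes in the table, 15102 had a wild-type mean of at least 2 and 128 met all limits. Leaving out 3 ranges of locus numbers on chromosomes 4, 10 and 12, which hold 19 of the 128, and the single locus LOC_Os01g64000 left 108 members. Since the rule used the same 6 values per gene that are given below, levels and ratios are a description of the list and were not tested.

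Polyadenylated RNA was sequenced, with a strand-marking kit, from seedlings 14 days old that had spent 3 h in 20% PEG8000, a polymer used to withhold water from the roots. The wild type was NIP, and the overexpression line was SDG708-YFP-1, whose name points to SDG708 joined to a yellow fluorescent protein. It is 1 line, and the promoter that drives the fusion is not given in the labels. Each genotype had 3 repeats, with 2 lanes listed for each wild-type repeat but 1 column of values, so the lanes appear to have been pooled. Every plant was treated, so the values compare genotypes under PEG and not treated with untreated plants. Only the wild-type samples carry lane labels, so lane and genotype cannot be told apart. Nothing in the labels says that repeats came from separate cultures, and their spread may be technical.

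SDG708 is a SET-domain protein, a class of enzymes that methylate lysines of histone tails, and in rice it is known for methylating a lysine of histone H3 that marks transcribed gene bodies. Under water loss, seedlings accumulate abscisic acid, which switches on genes for protective proteins, while growth and photosynthesis are held back. A lower transcript level in the line can come from fewer cells of a type or from less RNA per cell, and in bulk RNA these cannot be told apart. The table names genes by locus number only, and the reference table of gene symbols paired with none of these numbers, so the members appear under their numbers and no role is given to them. Whether reads were counted by strand is not stated, so a member and an antisense or near-identical row cannot be told apart.

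The locus number of SDG708 is not among the rows used here. The row with the number just below it, LOC_Os04g34976, had FPKM values of 5.91, 4.66 and 4.89 in the wild type and of 147, 154 and 148 in the overexpression line. Library sizes implied by the FPKM steps were between 13.3 and 24.9 M reads. Green shoot markers were detected throughout, with summed FPKM values of 6 genes from 5938 to 7609 in the wild type and from 11602 to 12059 in the line. All 6 passed as higher in the line (limma, Benjamini-Hochberg adjusted p from 0.00016 to 0.0076). Of 6 root markers, 4 had a wild-type mean under 1 and 2 of these were at 0 in every library, with summed values of 10.0 to 10.8 and 10.0 to 11.1. Markers of 3 dividing-cell genes summed to between 7.28 and 8.28 in the wild type and between 8.04 and 8.92 in the line. The part of tissue makeup in the results below was not tested.

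Most members were only just halved. The ratio of the wild-type mean to the overexpression mean ran from 2.003 to 8.99 with a median of 2.42, and 61 of 108 members were under 2.5. Only 18 members reached a ratio of 3 and only 7 a ratio of 5. Levels ran from a wild-type mean of 2.01 to 3377 with a median of 6.49. There were 44 members under 5 and 10 members at 100 or more. For 11 members the overexpression mean was under 1. The limits of the rule gave 0.848% of the 15102 genes expressed at this level, left-out loci included. With overlap allowed, 0.947% were at least halved. Values of the wild type lay all above those of the line for 35.6% of the same genes. The mirrored rule, for genes at least doubled in the line without overlap, gave 419 of 15349 genes or 2.73%.

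Set against a fit across the whole table, 106 of the 108 members were called lower (limma on log2(FPKM + 1), adjusted p below 0.05), where 20.0% of the 18569 tested genes were. Nothing is read from this count, since the rule used the same contrast. All 108 members passed the filter on low values of that fit. In that fit 0.334% of tested genes were lower with a log2 fold change of -1 or beyond, and 47 members were. It called 3706 genes lower and 2654 (14.3%) higher, and after scaling each library to its summed table reads the split was 2077 lower and 3697 higher. The members not called were LOC_Os10g38278 and LOC_Os05g13900, both of which had 1 wild-type library far above the others. The authors' deposited table gives a negative log2 fold change for all 108 members, from -3.17 to -0.99. That sign follows from the rule, which used the same libraries. The authors' deposited p-value was below 0.05, unadjusted, for 107 members and for 54.8% of the 14965 other genes with a wild-type mean of at least 2. Nothing is read from this count either. The exception is LOC_Os01g57968, with p = 0.12 in the authors' deposited table.

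**Figure D1:**
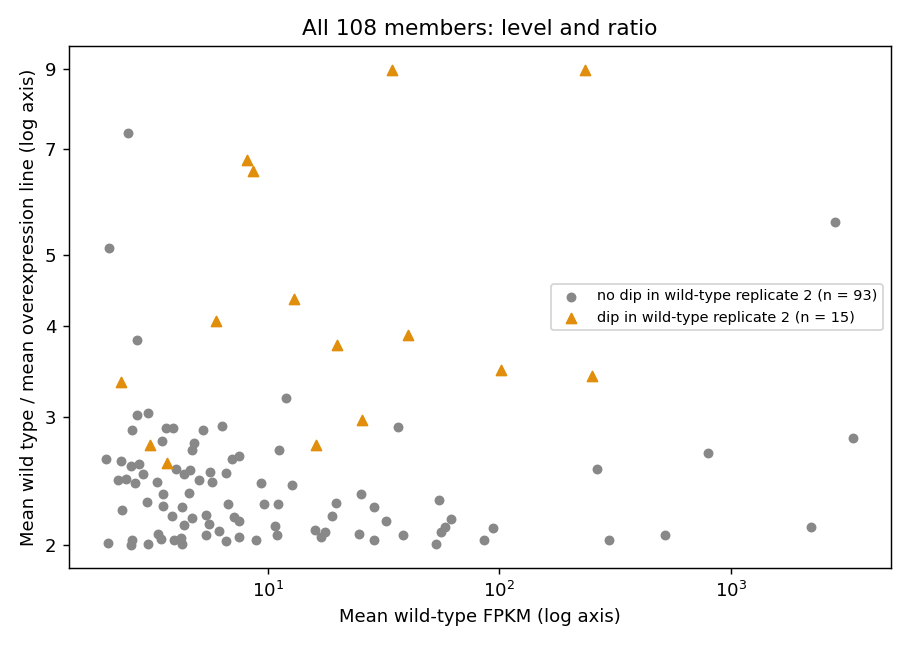
Mean wild-type FPKM of each of the 108 members (horizontal, log axis) against the ratio of the wild-type mean to the overexpression mean (vertical, log axis). Triangles mark the 15 members whose wild-type replicates 1 and 3 were each at least 1.5 times replicate 2, and 11 of these 15 lie at a ratio of 3 or more. The definition of this shape favours a larger ratio.

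The member with the largest ratio was also the least even within the line. LOC_Os01g57968 on chromosome 1 had FPKM values of 301, 129 and 275 in the wild type and of 0.341, 76.3 and 1.69 in the line. Its ratio of 8.99 thus came from an overexpression mean of 26.1 ± 43.5 (SD, n = 3), and the second overexpression library stood 224 times above the first. LOC_Os05g22840 on chromosome 5 had nearly the same ratio with 44.1, 9.73 and 49.9 in the wild type against 5.66, 3.76 and 2.13. Its second wild-type library lay closer to the line than to the other wild-type libraries.

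Of the other members with the largest ratios, LOC_Os01g08350 (14.2, 2.75 and 7.61 against 1.72, 1.49 and 0.420) and LOC_Os10g38276 (15.3, 2.49 and 8.19 against 1.42, 1.68 and 0.890) repeated that shape, with wild-type replicate 2 lowest. LOC_Os09g08910 did so as well, at 22.7, 4.64 and 11.5 against 3.59, 3.40 and 1.94. LOC_Os09g04680 had 59.1, 18.5 and 43.0 against 14.0, 9.38 and 7.70. In these 4 genes no wild-type value overlapped the line, but wild-type replicate 2 alone was only 2.28, 1.87, 1.56 and 1.79 times the overexpression mean, in the order given.

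The steadiest wild type among these 10 members was that of LOC_Os08g29980 on chromosome 8 (highest over lowest 1.14), which had 1.93, 2.19 and 2.07 in the wild type and 0.328, 0.510 and 0.372 in the line, a ratio of 5.12. These values are low, but they rest on 653 reads in the wild type and 91 in the line, because the FPKM steps imply a long gene of 5041 bases. LOC_Os10g38229 had 1.66, 2.69 and 3.15 against 0.401, 0.424 and 0.196, and its lowest wild-type value was 3.92 times its highest overexpression value, the widest gap among the members, although the line itself spanned 2.17 times. LOC_Os12g14939 was uneven in both genotypes, with 7.26, 3.48 and 7.28 against 0.888, 1.16 and 2.39, on 91 and 18 reads.

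**Figure D2:**
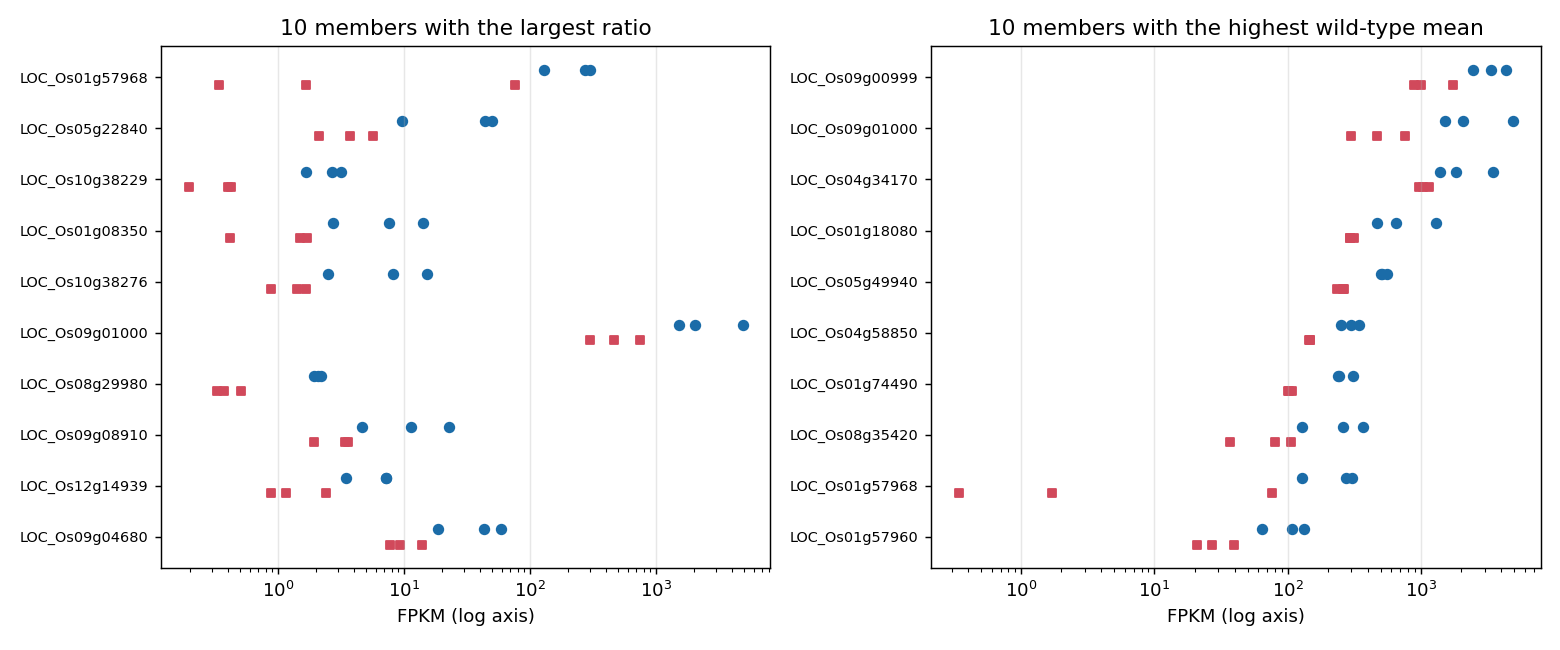
FPKM in each library (log axis) for the 10 members with the largest ratio (left) and the 10 with the highest wild-type mean (right), with circles for the 3 wild-type libraries and squares for the 3 overexpression libraries. LOC_Os01g57968 spans 0.341 to 76.3 in the line, whereas the wild-type circles of LOC_Os05g49940 and LOC_Os08g29980 lie close together.

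At the top of the level range stood a pair of adjacent rows, the first ones of chromosome 9. LOC_Os09g00999 had 2457, 3329 and 4344 in the wild type and 1732, 992 and 891 in the line. LOC_Os09g01000 had 2061, 1527 and 4889 against 756, 469 and 299. Both were highest in wild-type replicate 3, and in the line both were highest in replicate 1 and lowest in replicate 3. They carried much of the list's summed FPKM, which was 9133 to 14809 in the wild type and 3499 to 5048 in the line, or 2.06 to 3.32% and 0.836 to 1.18% of each table column.

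A further pair of abundant members were set apart by wild-type replicate 1. LOC_Os04g34170 had 3448, 1392 and 1833 against 1041, 1152 and 960.8, and LOC_Os01g18080 had 1286, 470.4 and 646 against 292, 316 and 291. In both genes the line was tight and the wild type was not. Wild-type spreads were smaller, at 1.10, 1.38 and 1.29 times from lowest to highest, in LOC_Os05g49940 (552, 503 and 509 against 261, 263 and 233), LOC_Os04g58850 (345, 250.0 and 297 against 148, 148 and 143) and LOC_Os01g74490 (309, 242 and 240.4 against 109, 101 and 101). For these the ratios were 2.07, 2.03 and 2.54. LOC_Os08g35420 had 259, 129 and 370.2 against 105, 79.9 and 36.9, and LOC_Os01g57960 had 108, 63.6 and 132 against 39.3, 27.2 and 21.0, again with wild-type replicate 2 lowest.

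Evenness between the wild-type libraries divided the list. The highest wild-type value was at most 1.25 times the lowest in 39 members (36.1%), against 64.3% of the 14965 other genes with a wild-type mean of at least 2. It was at least 2 times the lowest in 25 members (23.1%), against 1.09% of those genes. In the line, 15 members (13.9%) were that uneven, against 0.428%. The rule favours large gaps and so bears on this spread, and the shares are given as a description. Members also rested on fewer reads, a median of 764 in the wild type and 232 in the line. Those other genes had medians of 1725 and 1191. The part of read depth in these shares was not tested.

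Replicate 2 was the lowest wild-type library in 66 members, replicate 3 in 25 and replicate 1 in 17, and replicate 1 was the highest in 70. Among the other genes of that level replicate 2 was lowest in 38.0% and replicate 1 highest in 42.8%. A dip, with replicates 1 and 3 each at least 1.5 times replicate 2, was seen in 15 members (13.9%) and in 0.314% of the other genes. All 19 genes of the left-out ranges that met the limits showed it. Those left-out rows had a median ratio of 6.34, against 3.76 in the members with the dip and 2.28 in the 93 without. The median of 6.34 leaves out LOC_Os10g21298, which was at 0 in every library of the line and has no finite ratio. The dip is defined on wild-type values that also form the ratio, so its definition favours a larger ratio. A limit of 1.5 for the dip was chosen after these values were seen.

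**Figure D3:**
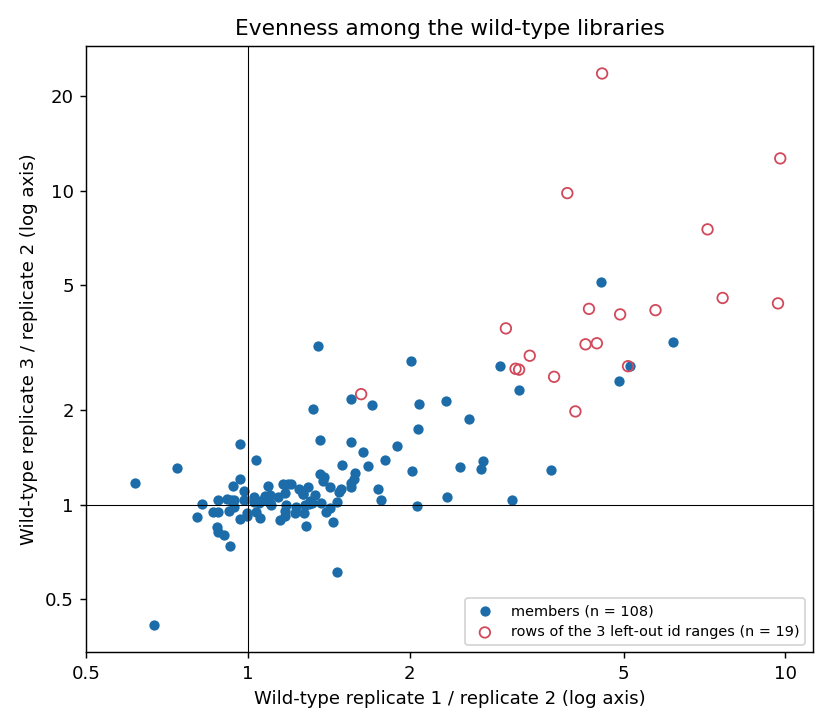
Wild-type replicate 1 over replicate 2 (horizontal) against replicate 3 over replicate 2 (vertical), both on log axes, for the 108 members (filled) and the 19 rows of the left-out ranges that met the limits (open). Most members cluster near 1, while 15 members and all 19 open circles lie at 1.5 or more on both axes.

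The 5 members with the most uneven wild types were LOC_Os10g38276 (highest over lowest 6.17), LOC_Os01g08350 (5.15), LOC_Os05g22840 (5.12), LOC_Os09g08910 (4.90) and LOC_Os10g38278 (3.66). A different shape, with replicate 1 at least 1.5 times both others and no dip, was seen in 10 members. LOC_Os05g13900 was one, with 62.6, 23.1 and 30.0 in the wild type and 19.1, 18.0 and 19.0 in the line. In LOC_Os12g34128 the values were 15.7, 7.78 and 9.94 against 4.45, 5.01 and 5.24. These 10 members had a median highest-over-lowest of 2.41 in the wild type, a spread that the choice of this shape favours, and of 1.26 in the line. Members with the dip had medians of 2.58 and 1.89.

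The remaining 83 members had neither shape, and their median ratio was 2.28. All 22 members whose lowest wild-type value was at least 2 times their highest overexpression value were among them. Examples picked after their values were seen are LOC_Os04g10690 (12.3, 12.4 and 11.4 against 3.72, 4.13 and 3.51), LOC_Os03g43750 (5.38, 5.14 and 5.20 against 1.67, 1.81 and 1.98) and LOC_Os05g50570 (7.61, 7.41 and 7.55 against 3.01, 2.94 and 2.56). In each of these the libraries of a genotype differed by less than 1.25 times. Their ratios were 3.18, 2.87 and 2.65.

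The ratio of each wild-type library alone uses the values of the rule again and restates which replicates ran low or high. Against the overexpression mean, replicate 1 was at least 2 times higher in 101 members, replicate 3 in 87 and replicate 2 in 62. The median ratios were 2.65, 2.31 and 2.08. With wild-type replicate 2 left out, 158 genes met the rule, and 107 of the 108 members were among them. With replicate 1 left out, 95 met it and 81 were members. Leaving out any 1 overexpression library gave between 105 and 120 genes.

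Adjacent locus numbers brought 14 of the 108 members into 6 runs, a run being members that follow each other among the rows of a chromosome with no other row between. Allowing 3 rows between members gave 18 members in 7 runs. The longest run had 4 members. The remaining 94 members had no member beside them.

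The longest stretch was on chromosome 11. LOC_Os11g47510 (12.4, 10.1 and 9.92 against 4.79, 6.10 and 4.38), LOC_Os11g47520 (5.08, 3.10 and 4.58 against 2.42, 1.12 and 2.11), LOC_Os11g47530 (9.85, 9.91 and 9.31 against 3.68, 4.55 and 4.55) and LOC_Os11g47550 (4.06, 4.20 and 3.77 against 1.09, 1.87 and 1.78) followed each other. After 4 other rows came LOC_Os11g47590 (2.72, 3.10 and 2.54 against 1.20, 1.07 and 0.963) and LOC_Os11g47600 (26.4, 25.5 and 24.2 against 11.3, 11.03 and 10.1). Ratios of the 6 members lay between 2.12 and 2.59, and none had the dip in wild-type replicate 2.

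Of the 12 rows from LOC_Os11g47500 to LOC_Os11g47610, 10 had a wild-type mean of at least 2. The direction of the 6 members among them was fixed by the rule, and 3 of the other 4 had a lower mean in the line, where 61.1% of all other genes of that level did. LOC_Os11g47500, the most abundant, had 123, 89.7 and 98.7 against 56.6, 53.7 and 55.0 and just missed the limit at a ratio of 1.89. LOC_Os11g47610, at the other end, missed it at 1.995. The exception was LOC_Os11g47574, with 20.2, 37.1 and 31.2 in the wild type and 36.9, 38.4 and 35.5 in the line. Beyond the stretch, LOC_Os11g47630 went the other way, from a mean of 1.25 to 5.25. The 10 expressed rows have similar implied lengths, from 915 to 1375 bases. Whether they share sequence, so that reads could be split between copies, was not tested.

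**Figure D4:**
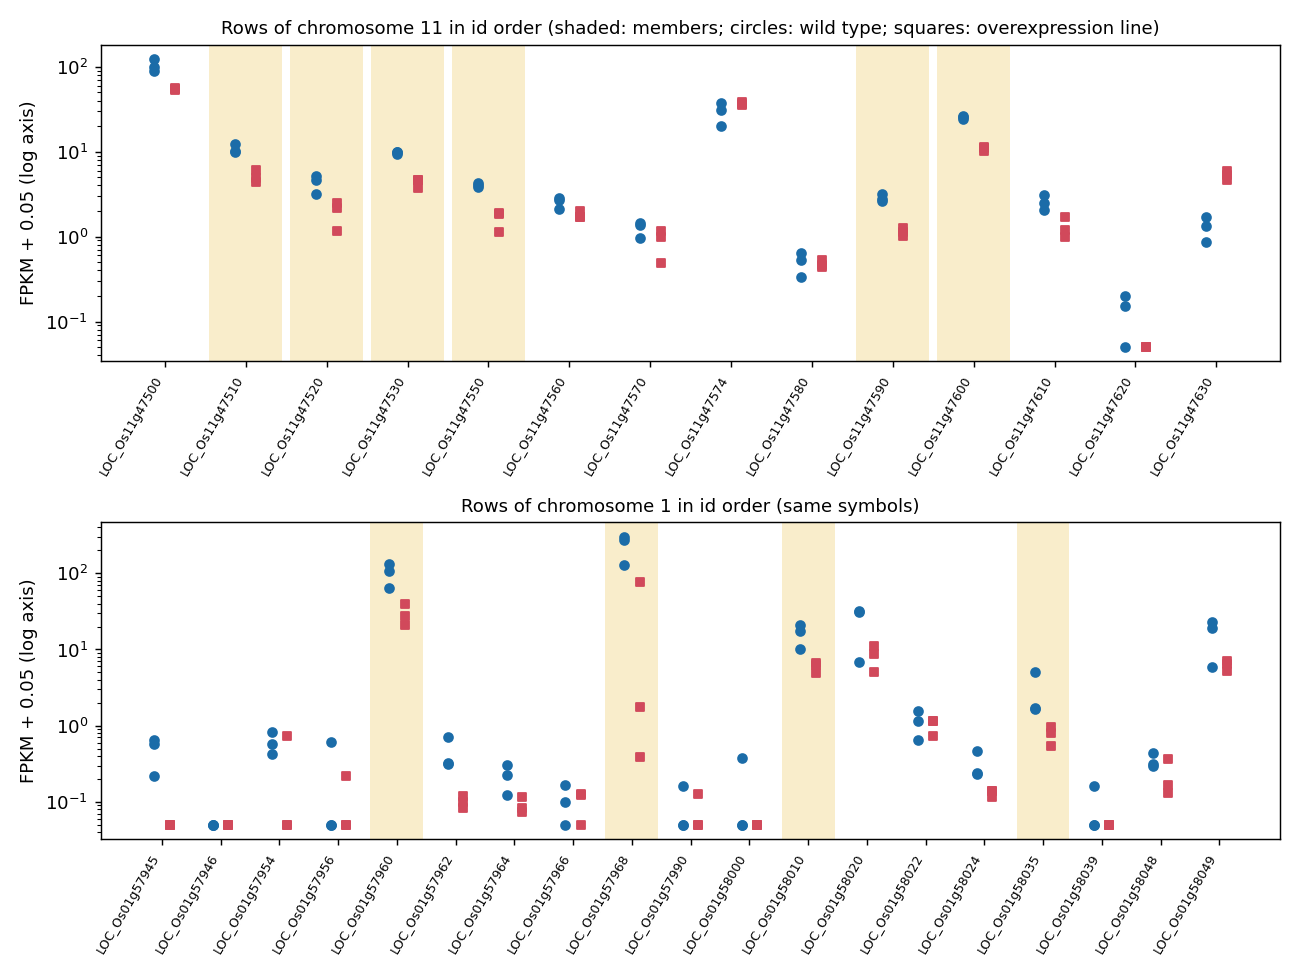
FPKM plus 0.05 (log axis) in each library for rows of chromosome 11 (top) and chromosome 1 (bottom) in the order of their locus numbers, with circles for the wild type, squares for the overexpression line and shading for members. On chromosome 11 the members keep ratios of 2.12 to 2.59, while on chromosome 1 the 4 members stand among 12 rows with a wild-type mean under 1.

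A looser group lay on chromosome 1. Among 19 rows from LOC_Os01g57945 to LOC_Os01g58049, 12 had a wild-type mean under 1 and 6 a mean of at least 2, of which 4 were members, lower by the rule. LOC_Os01g57960 and LOC_Os01g57968, given above, LOC_Os01g58010 (20.8, 10.0 and 17.5 against 6.19, 6.50 and 4.93) and LOC_Os01g58035 (4.94, 1.59 and 1.65 against 0.745, 0.485 and 0.910) were members. LOC_Os01g58035 is the thinnest member of the group, with 48 reads in the wild type and 10 in the line. Both other rows with a mean of at least 2 met the ratio but overlapped: LOC_Os01g58020 had 32.2, 6.70 and 30.6 against 10.95, 8.56 and 4.998, and LOC_Os01g58049 had 22.7, 5.82 and 19.2 against 6.96, 6.33 and 5.16. In both, only wild-type replicate 2 fell into the range of the line.

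On chromosome 10, LOC_Os10g38276 and LOC_Os10g38278 (5.59, 1.53 and 1.97 against 0.952, 1.03 and 1.01) were adjacent, and LOC_Os10g38229 lay a few rows before them. Of the rows between with a wild-type mean of at least 2, LOC_Os10g38274 (8.20, 4.41 and 11.98 against 3.97, 5.38 and 1.57) and LOC_Os10g38238 (3.14, 0.515 and 4.48 against 1.69, 0.236 and 0.177) met the ratio and overlapped. The pair on chromosome 12, LOC_Os12g14930 (33.8, 11.5 and 31.7 against 10.0, 9.10 and 6.83) and LOC_Os12g14939, had the dip in wild-type replicate 2 in both genes. On chromosome 10 only LOC_Os10g38276 of the 3 members had it. The non-member rows between, LOC_Os10g38238, LOC_Os10g38274, LOC_Os10g38234 (1.93, 0.510 and 1.65 in the wild type) and LOC_Os10g38272 (1.80, 0.728 and 1.70), had it as well. The other pair of chromosome 11, LOC_Os11g19864 (14.1, 11.3 and 12.7 against 4.93, 5.45 and 5.36) and LOC_Os11g19840 (3.67, 2.36 and 2.68 against 0.914, 1.39 and 1.18), did not, and its ratios were 2.42 and 2.503.

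Rows next to members, those at the edges of runs included, were close to the rest of the table. Of 199 nearest rows that were not members, 80 had a wild-type mean of at least 2. Their median log2 ratio of line over wild type was -0.12, against -0.09 in all 14965 other genes of that level, these 80 included. The share below 0 was 67.5% and 61.1%. A pair of members lay beside left-out loci with 1 row between, LOC_Os12g34128 next to the chromosome 12 range and LOC_Os01g63980 (7.49, 6.55 and 5.84 against 2.93, 2.61 and 2.37) next to LOC_Os01g64000.

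The members were spread over all 12 chromosomes. Chromosome 1 held 22 (1.01% of its genes with a wild-type mean of at least 2), chromosome 11 held 10 (1.44%) and chromosome 12 held 9 (1.16%), while chromosome 3 held 7 (0.327%). Of the 10 on chromosome 11, 6 lay in the stretch described above, and LOC_Os11g19840 and LOC_Os11g19864 were an adjacent pair. Of the 22 on chromosome 1, 4 lay in the looser group. The rule did not use gene length, and the members were short: the median implied length was 1500 bases, against 3315 in the other genes and 1161 in the left-out rows. It was 1037 bases in members with the dip and 1574 in those with neither shape. Locus numbers not ending in 0 made up 20.4% of members, 7.38% of the other genes and 78.9% of the left-out rows. Short genes yield fewer reads at a given FPKM, and the members rested on a median of 764 reads in the wild type and 232 in the line, summed over 3 libraries each. There were 13 members with fewer than 10 reads in some library.

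Members just inside the level limit were LOC_Os01g74340, LOC_Os09g15320 and LOC_Os08g29980, with wild-type means of 2.01, 2.04 and 2.07. Just outside it, LOC_Os02g24598, LOC_Os09g35030 and LOC_Os12g28880 had means of 1.996, 1.89 and 1.83. Ratios just inside were those of LOC_Os02g07170, LOC_Os08g41750 and LOC_Os09g27680, at 2.0028, 2.003 and 2.0045. LOC_Os01g43650, LOC_Os01g08380 and LOC_Os11g47610 fell just short, at 1.999, 1.9986 and 1.995. By the gap between genotypes, LOC_Os12g14930 (lowest wild type 1.15 times the highest overexpression value), LOC_Os05g13900 (1.21) and LOC_Os04g34170 (1.21) were just inside. LOC_Os08g15270 (0.980), LOC_Os05g22724 (0.902) and LOC_Os01g58049 (0.836) were just outside. In all, 10 genes outside the left-out loci met level and ratio but overlapped.

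None of 67 loci of the table in 11 lists of named genes was a member. The counts below are from values as deposited and stand beside 20.0% lower and 14.3% higher over all tested genes. They were not repeated after scaling to summed table reads, where the split over all tested genes was 2077 lower and 3697 higher. LEA proteins and dehydrins, which protect drying cells, had 4 of 6 tested genes lower and 2 that did not pass, with a median log2 fold change of -0.46 against a median of -0.04 over all tested genes (limma on log2(FPKM + 1)). Among them OsLEA3-1 fell from 1788 ± 152 to 939.9 ± 49.9 FPKM (SD, n = 3 each; limma adjusted p = 0.00031). Among JAZ repressors, which hold back jasmonate responses, 8 of 12 tested were lower and 4 did not pass (median -0.37). Clock genes had 2 of 9 lower, near the share over all tested genes, with OsLUX at -0.71 (limma adjusted p = 0.017), and ABA-responsive bZIP factors 2 of 5. Of 3 ABA 8'-hydroxylases, which break down abscisic acid, 1 was lower, 1 higher and 1 did not pass. The lower one, OsABA8ox1, came closest of the listed genes to the limits, at 72.8 ± 2.70 against 37.4 ± 0.826 FPKM (SD, n = 3 each; limma adjusted p = 3.2e-05). Of flowering-time genes 1 was tested and was lower, of nitrogen genes 1 of 3 was lower, both tested iron genes were higher, both tested root markers did not pass, and 1 of 3 dividing-cell markers was higher.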

How the data were processed

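Values are FPKM per library, as the authors deposited them, with 1 column for each of 6 libraries. The authors' deposited log2 fold changes and p-values were used only where named. The submitters' processing notes name HISAT2, featureCounts, DESeq2, cutadapt, SAMtools, FastQC and deepTools, without versions. Genome build, gene annotation and strandedness of counting are not given in the sources that were used. The 3 wild-type columns were mapped to their genotype but not to single samples, because the labels do not explain a digit in the column names.

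Members and lists were chosen with earlier results of these data known. Members were taken by the limits given above, and the text names the 10 with the largest ratio, the 10 with the highest level, all in runs, those next to each limit and the 5 with the most uneven wild type. Reads and gene lengths were implied from the FPKM steps, which gave whole reads for 31219 of 31263 genes above 0 (tolerance 0.02 of a read). They were checked on simulated reads. Column totals of these reads were 1.05 to 1.07 times the implied library sizes in the wild type and 0.971 to 0.996 times in the line. The deposited scale thus sets wild-type values higher, relative to the line, than scaling to these totals does. Across all genes limma 3.58.1 (R 4.3.3) was run on log2(FPKM + 1) with a variance trend, keeping genes that reached an FPKM of 1 in 3 or more libraries. The test was two-sided, and p-values were Benjamini-Hochberg adjusted with a threshold of 0.05. The fit was also run on simulated data with the same spread setting for both genotypes. Spread in the real libraries differed by genotype, as given below, so the simulation does not cover that case. Fold changes on this scale understate those of low genes. Depth limits precision: 1 read in a gene of 1 kb was worth 0.0402 to 0.0752 FPKM. Replicate pairs differed by 1.49 to 1.94 times sampling variance in the line and 3.22 to 7.72 times in the wild type. Listed names were compared with reference symbols for 54 loci, and the 1 on another chromosome was left out of the list counts. The other names rest on the lists alone.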

Additional observations from a re-analysis of the deposited data

How the results depend on the processing

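The list shrank to 64 genes with a wild-type mean of at least 5, by construction, and grew to 154 with a mean of at least 1. It held 93 genes under median-ratio scaling and 73 after scaling to summed table reads. Both scalings divided wild-type values by factors above 1 (1.01 to 1.05) and line values by factors below 1 (0.948 to 0.992). By construction they could therefore only remove members and add no gene. Leaving out 1 library gave 95 to 158 genes. The count of members with a gap of at least 2 times, 22 as reported, was 12 with a mean of at least 5, 12 after scaling to summed table reads, and 27 to 56 with 1 library left out, highest without NIP_PEG replicate 2. Members in runs, 14 as reported, numbered 22 with a mean of at least 1, 4 with a mean of at least 5, and 12 to 25 with 1 library left out, again highest without NIP_PEG replicate 2. In limma, 3706 genes were lower as reported, 2077 after scaling to summed table reads, 2220 with voom on whole reads, 2319 with 708OE_PEG replicates 1 and 2 as 1 sample, and 1884 to 4062 with 1 library left out (2199 without NIP_PEG replicate 3, and 2153, 2179 and 1884 without 708OE_PEG replicates 1, 2 and 3). Those at least 2-fold lower numbered 62 as reported, 128 with a pseudocount of 0.1, 21 with 5, 40 with a mean FPKM of at least 5, and 45 to 100 with 1 library left out, highest without NIP_PEG replicate 2. By construction, leaving out a library can widen but not narrow the gap of a gene. A smaller pseudocount stretches log2 fold changes and a larger one shrinks them. The cause of the other shifts was not tested. With the replicate number as a block, 3126 genes were lower and 66 at least 2-fold lower. Over the tested genes, deviations from the group means correlated at -0.045 to -0.002 between libraries with the same number. Between libraries with different numbers they correlated at -0.023 to 0.04. The labels do not say whether libraries with the same number shared a batch, and these correlations cannot decide it.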
